A study of Homo sapiens with 12 samples.

Results

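The genes described here are 10 transcriptional regulators at the output side of the circadian clock, PER1, PER2, PER3, CRY1, CRY2, DBP, TEF, HLF, NFIL3 and BHLHE41, taken by symbol from a gene table of 60591 genes. Their mRNA was measured by RNA-seq in PC9 and H1650, a pair of human non-small cell lung cancer (NSCLC) lines in which EGFR carries an activating deletion. T0 libraries came from cells given 0.1% DMSO and collected at 0 h, when the drugs were added, and treated libraries from cells kept for 36 h with 10 μM erlotinib, a reversible EGFR inhibitor, or 0.1 μM osimertinib, a covalent one. Each of the 6 groups had 2 libraries, 12 in all, and every group was grown in RPMI with fetal bovine serum after a night of adherence. No 36 h vehicle library is among those analysed here, so the drug and the 36 h in culture, with whatever clock phase the cells had then, cannot be told apart in any change from T0. The sources used here name no synchronisation of the cells.

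In the mammalian clock, BMAL1 paired with CLOCK or NPAS2 binds E-box elements and drives the PER and CRY genes, whose proteins then return to the nucleus and repress that pair. The same E-box drive reaches DBP, TEF and HLF, the PAR bZIP activators, which bind D-box elements. NFIL3 represses through the D-box, and BHLHE41 (DEC2) represses through the E-box. PER1 is also known as a gene that cAMP, serum and glucocorticoids induce within hours.

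The E-box CACGTG was looked for in the 250 bases before the RefSeq start of each gene (build GRCh38.p14), since the BMAL1 pair binds E-boxes. CACGTG lay in 3 of the 10 upstream windows, against 6.345% of 35114 promoters searched in the same way. Other forms of the E-box, and E-boxes farther from the start, were not searched. The 3 sites are shown with 12 bases on either side, 5′ to 3′ on the gene's strand, with the E-box in capitals:
PER1, chr17:8152560-8152589 (minus strand): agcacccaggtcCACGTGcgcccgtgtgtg
TEF, chr22:41381737-41381766 (plus strand): cacctggccccgCACGTGtctatcttatcc
BHLHE41, chr12:26125068-26125097 (minus strand): tggtacgttccgCACGTGagctgggtgctg
Counted from the RefSeq start, the E-box began at -173 in PER1, -193 in TEF and -48 in BHLHE41. The PER1 and TEF windows lay within the spans that GENCODE 29 gives these genes but in no exon, and all 30 bases of the BHLHE41 window lay in an exon of the gene. The other elements searched, on both strands, were the D-box (TTATGTAA or TTACGTAA, in 0.9398% of promoters) and the full CRE (TGACGTCA, in 1.646%), which lay in 0 of the 10 windows. The CRE core TGACG, in 21.22% of promoters, lay in those of PER2, CRY1 and CRY2, and CCAAT, in 32.01%, lay in 8 of the 10. A match of letters is a description of the window and shows no binding.

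The libraries held between 17961765 and 26346187 reads assigned to genes, with a median of 21581420.5, and levels are given as counts scaled to library size with TMM factors (normalized CPM), as the value of each library or as mean ± SD of 2 libraries. At this depth 3 reads correspond to between 0.116 and 0.168 normalized CPM, which covers counting error only. Mitochondrial genes took between 4.36% and 7.20% of the reads. In every library the 6 epithelial markers summed to between 5464 and 10162 normalized CPM, against 17.0 to 44.9 for 6 fibroblast, 2.02 to 59.2 for 6 leukocyte and 0.193 to 5.83 for 4 endothelial markers. Of the 10 genes, 9 passed the filter on low counts and were tested among 19108 genes. The paper describes its RNA-seq values as means of 2 biological replicates, and the labels do not say whether these came from separate cultures. If they did not, the p-values measure only the spread between these libraries. In bulk RNA, a change in the share of cells that express a gene and a change in its RNA per cell cannot be told apart.

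In PC9 cells, 5 of the 9 tested genes rose and 3 fell with erlotinib, and 5 rose and 4 fell with osimertinib (edgeR quasi-likelihood test, Benjamini-Hochberg adjusted p under 0.05). PER1, PER3, CRY2, DBP and TEF rose with both drugs, while CRY1, NFIL3 and BHLHE41 fell with both. Of all tested genes, 32.7% rose and 29.1% fell with erlotinib, and 32.7% rose and 28.7% fell with osimertinib. In H1650 cells, 3 genes rose and 2 fell with erlotinib, against 18% and 18.5% of all tested genes. With osimertinib, 3 genes rose and 3 fell in H1650, against 17.8% and 17.9%. The median log2 change of the 9 genes was 0.54 and 0.62 in PC9 and 0.02 and 0.04 in H1650 (erlotinib, then osimertinib), beside 0.07, 0.06, 0.01 and 0 over all tested genes. DBP was the 1 gene that rose in all 4 comparisons (8.47% of all tested genes) and CRY1 the 1 gene that fell in all 4 (9.16%). PER3 and BHLHE41 were called in opposite directions in the lines with both drugs, as were 2.28% of all tested genes. Both comparisons within a line share its T0 libraries.

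**Figure D1:**
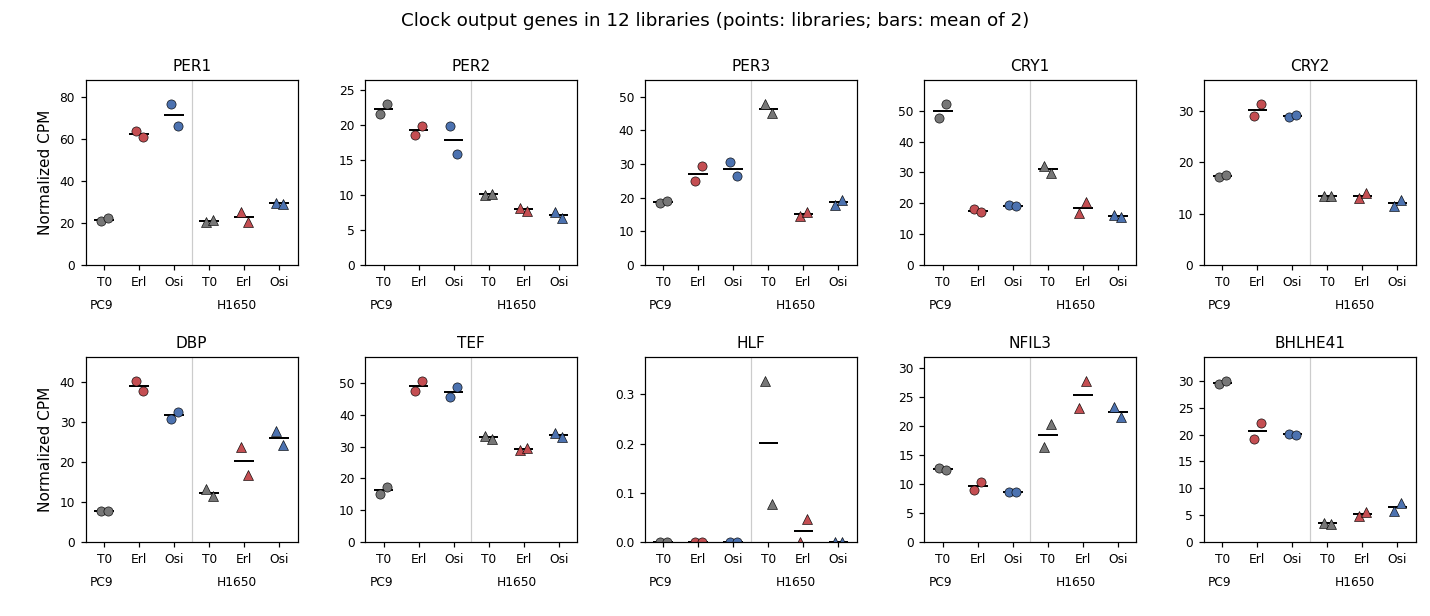
Normalized CPM (y axis) of each of the 10 genes in each of the 12 libraries (points), by line and treatment (Erl, erlotinib; Osi, osimertinib), with bars at the mean of 2; each panel has its own linear axis from 0. In PC9 the treated libraries of PER1, DBP and TEF sit far above the T0 pair and those of CRY1 far below it, while in H1650 the PER3 libraries drop from 47.8 and 45.1 to under 20 and TEF stays between 28.9 and 34.4.

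**Figure D2:**
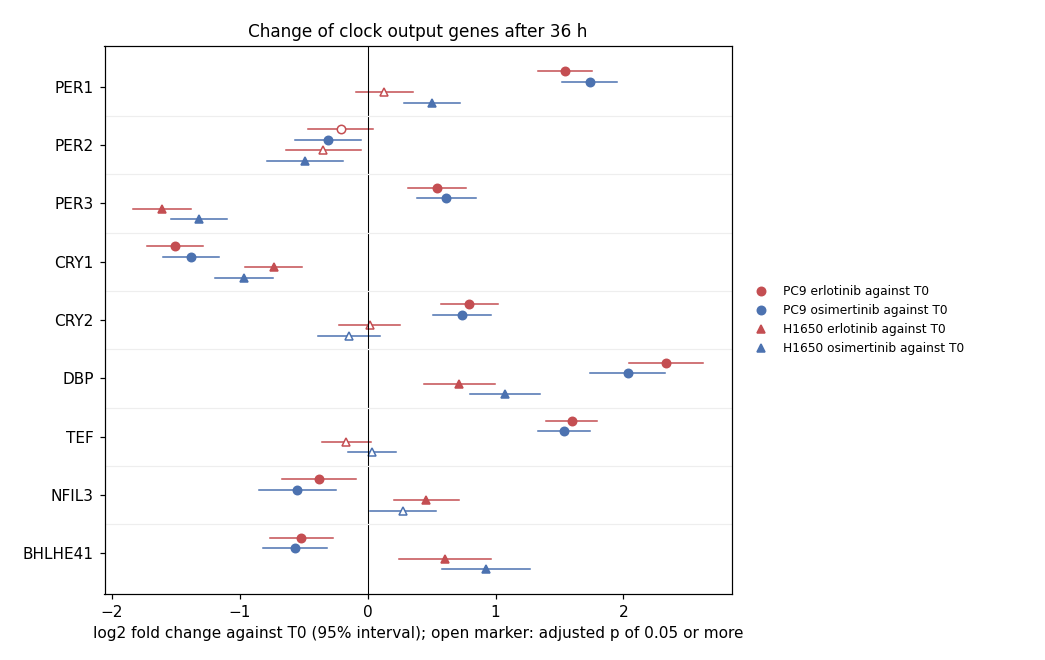
Log2 fold change against T0 (x axis) of the 9 tested genes (rows) with 95% intervals, for erlotinib (red) and osimertinib (blue) in PC9 (circles) and H1650 (triangles); filled markers have an adjusted p under 0.05. DBP lies to the right of 0 and CRY1 to the left in all 4 comparisons, and PER3 and BHLHE41 change sides between the lines.

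Among the PER repressors, PER1 (ENSG00000179094, chr17:8140472-8156506, minus strand, GRCh38) rose 2.91-fold and 3.33-fold in PC9 cells with erlotinib and osimertinib. At T0 the PC9 libraries were at 20.8 and 22.2 and those of H1650 at 20.2 and 21.3, which do not separate the lines. With erlotinib the PC9 libraries were at 64.1 and 61.2 and with osimertinib at 76.7 and 66.4, all above both T0 libraries. The log2 change was 1.54 ± 0.10 (SE) with erlotinib and 1.74 ± 0.10 with osimertinib, with edgeR adjusted p-values of 2.7e-13 and 2.0e-14. In H1650 the erlotinib libraries were at 25.4 and 20.3 and overlapped T0, with a log2 change of 0.13 and a 95% interval from -0.09 to 0.36 (edgeR adjusted p = 0.376). The H1650 osimertinib libraries, at 29.6 and 29.3, were above T0, and PER1 rose by 0.50 ± 0.11 on the log2 scale (edgeR adjusted p = 0.00042). In order of level, both treated PC9 groups came first and their difference did not pass the test, H1650 with osimertinib followed, and the other 3 groups lay within their spread of each other.

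PER2 (ENSG00000132326, chr2:238244038-238290102, minus strand), the PER protein most tied to the timing of the loop, moved less than the others in PC9. In PC9 it was at 21.6 and 23.0 at T0, at 18.5 and 19.9 with erlotinib and at 19.8 and 15.9 with osimertinib. All treated libraries were below T0, by -0.21 with erlotinib (95% interval -0.46 to 0.04, edgeR adjusted p = 0.140) and by -0.31 ± 0.13 with osimertinib, which passed the test (edgeR adjusted p = 0.0324). That call was lost with DESeq2 (adjusted p = 0.0895) and without either T0 library (edgeR adjusted p = 0.0518 and 0.161), and without the second osimertinib library the log2 change was -0.17 (edgeR adjusted p = 0.338). In H1650 PER2 went from 9.98 and 10.2 to 8.20 and 7.68 with erlotinib (log2 change -0.35, edgeR adjusted p = 0.0606, and 0.0465 with RLE scaling) and to 7.59 and 6.77 with osimertinib. The osimertinib fall was 0.49 ± 0.14 on the log2 scale (edgeR adjusted p = 0.0081), and without the second osimertinib library the edgeR adjusted p was 0.0960. Every H1650 library was below every PC9 library for PER2.

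PER3 (ENSG00000049246, chr1:7784320-7845177, plus strand), the PER protein least needed for the loop itself, moved in opposite directions in the lines. In PC9 it went from 18.4 and 19.0 to 24.9 and 29.4 with erlotinib and to 30.7 and 26.3 with osimertinib. In H1650 it began far higher, at 47.8 and 45.1, and went to 14.7 and 15.8 with erlotinib and to 17.9 and 19.3 with osimertinib, close to or below the PC9 T0 level. PER3 rose in PC9 by 0.54 ± 0.11 and 0.62 ± 0.11 on the log2 scale (edgeR adjusted p = 0.00011 and 2.5e-05). It fell in H1650 by 1.61 ± 0.11 and 1.32 ± 0.11 on the log2 scale (edgeR adjusted p = 4.5e-12 and 1.5e-10). Of its exon bases in GENCODE 29, 10.72% are shared with UTS2 and 5.951% with the antisense gene Z98884.1, both on the opposite strand. The strandedness of the libraries is not given in the sources used here, and the counts of Z98884.1 were not examined. UTS2 held 0 or 1 reads in every H1650 library, and its log2 changes of 0.10 and 0.22 in PC9 did not pass the test.

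Per kb of gene length, as the deposited table gives it, PER1 to PER3 summed to 8.62 ± 0.34 normalized CPM per kb in PC9 at T0, to 15.1 ± 0.24 with erlotinib and to 16.3 ± 1.82 with osimertinib. In H1650 the sum went from 10.2 ± 0.10 to 6.30 ± 0.48 and 7.55 ± 0.0025. The summed PER level was thus higher than T0 in every treated PC9 library and lower in every treated H1650 library. The share of PER1 in that sum was nevertheless higher in the treated libraries of both lines, going from 35.6% to 59.3% and 62.6% in PC9 and from 29.2% to 51.6% and 55.7% in H1650. PER3 held 56.4% of the sum in H1650 at T0 and 30.0% and 30.4% after treatment. These sums, and the ratios that follow, were chosen after the values were seen and were not tested.

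Of the CRY repressors, CRY1 (ENSG00000008405, chr12:106991364-107093829, minus strand), which binds and silences the BMAL1 pair, fell in both lines with both drugs. PC9 libraries went from 47.5 and 52.2 at T0 to 18.1 and 17.0 with erlotinib and to 19.3 and 19.1 with osimertinib. H1650 libraries went from 32.1 and 29.9 to 16.7 and 20.4 and to 16.2 and 15.5. All 8 treated libraries were thus between 15.5 and 20.4, below every T0 library, and the 4 treated groups lay closer together than the T0 groups did. The log2 change was -1.51 ± 0.11 and -1.38 ± 0.11 in PC9 (edgeR adjusted p = 7.8e-13 and 5.6e-12) and -0.73 ± 0.11 and -0.97 ± 0.11 in H1650 (edgeR adjusted p = 3.9e-06 and 5.8e-08), with erlotinib first.

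CRY2 (ENSG00000121671, chr11:45847118-45883248, plus strand), the second cryptochrome, rose in PC9. Its PC9 levels were 17.2 and 17.5 at T0, 28.98 and 31.3 with erlotinib and 28.8 and 29.2 with osimertinib. Log2 changes were 0.80 ± 0.11 and 0.74 ± 0.11 (edgeR adjusted p = 2.7e-07 and 1.1e-06), and the treated groups did not differ beyond their spread. In H1650 all 6 libraries lay between 11.5 and 14.1, with log2 changes of 0.02 (95% interval -0.22 to 0.26) and -0.15 (-0.39 to 0.09) that did not pass the test. Per kb, CRY1 stood 3.72 ± 0.20 times above CRY2 in PC9 at T0, and the ratio was 0.757 ± 0.075 with erlotinib and 0.857 ± 0.015 with osimertinib. CRY2 was therefore the higher of the pair in every treated PC9 library. In H1650 the ratio went from 3.001 ± 0.14 to 1.78 ± 0.15 and 1.71 ± 0.16, and CRY1 stayed the higher of the pair in all libraries.

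**Figure D3:**
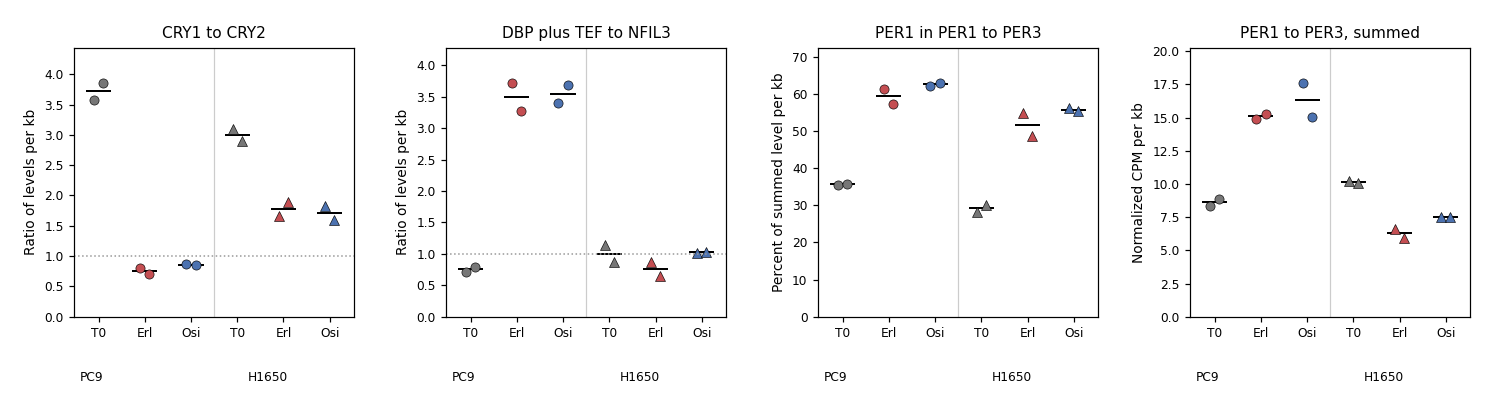
Ratios and sums of levels per kb in each of the 12 libraries (points; bars, mean of 2; dotted line, a ratio of 1), from left to right the CRY1 to CRY2 ratio, the ratio of DBP plus TEF to NFIL3, the percent of PER1 in the PER sum, and the PER sum in normalized CPM per kb. The CRY1 to CRY2 ratio lies below 1 and the DBP plus TEF to NFIL3 ratio above 3 only in the treated PC9 libraries among those measured, while the PER1 percent is higher after treatment in both lines.

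Of the PAR bZIP activators, DBP rose in both lines, TEF in PC9, and HLF was barely detected. DBP (ENSG00000105516, chr19:48630030-48637438, minus strand), the classic rhythmic D-box activator, was at 7.66 and 7.75 in PC9 at T0, at 40.1 and 37.7 with erlotinib and at 30.7 and 32.6 with osimertinib. In H1650 it was at 13.2 and 11.5 at T0, at 23.8 and 16.8 with erlotinib and at 27.6 and 24.2 with osimertinib. Each treated library was above both T0 libraries of its line. DBP rose by 2.33 ± 0.14 and 2.03 ± 0.14 on the log2 scale in PC9, 5.04-fold and 4.10-fold (edgeR adjusted p = 2.4e-14 and 6.2e-13), and by 0.72 ± 0.14 and 1.07 ± 0.13 in H1650 (edgeR adjusted p = 0.00011 and 2.6e-07). SPHK2, a sphingosine kinase gene on the opposite strand, shares 10.1% of the exon bases of DBP. SPHK2 fell in PC9, by 0.56 and 0.71 on the log2 scale, and its log2 changes of -0.24 and 0.08 in H1650 did not pass the test.

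TEF (ENSG00000167074, chr22:41367333-41399326, plus strand), the second D-box activator, rose 3.02-fold and 2.90-fold in PC9. Its libraries went from 15.2 and 17.2 at T0 to 47.6 and 50.5 with erlotinib and to 45.5 and 48.7 with osimertinib, with log2 changes of 1.60 ± 0.10 and 1.54 ± 0.10 (edgeR adjusted p = 3.2e-14 and 8.1e-14). In H1650 the libraries were at 33.3 and 32.4 at T0, at 28.9 and 29.5 with erlotinib and at 34.4 and 33.05 with osimertinib. The erlotinib libraries were below T0 and the osimertinib libraries overlapped it, and neither log2 change passed the test: -0.17 (95% interval -0.36 to 0.02) and 0.04 (-0.15 to 0.23). H1650 held 2.02-fold more TEF than PC9 at T0 and less than PC9 after either drug.

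HLF (ENSG00000108924, chr17:55265012-55325065, plus strand), the third PAR bZIP gene, was close to absent and was not tested. It had 0 reads in all 6 PC9 libraries, 7 and 2 reads in H1650 at T0, 0 and 1 with erlotinib and 0 and 0 with osimertinib. A count of 0 allows up to 3 reads, so HLF was under 0.168 normalized CPM in each PC9 library. Its highest H1650 library, at 0.326 normalized CPM, was far below the 33.3 of TEF in the same library, and no fold change is given.

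NFIL3 (ENSG00000165030, chr9:91409045-91423862, minus strand), the repressor that competes with the PAR bZIP proteins for the D-box, moved against DBP and TEF in PC9. PC9 libraries were at 12.8 and 12.5 at T0, at 9.003 and 10.4 with erlotinib and at 8.69 and 8.58 with osimertinib. H1650 libraries were at 16.5 and 20.4, at 23.1 and 27.7, and at 23.3 and 21.5, so every treated library was above T0 there and below it in PC9. NFIL3 fell by 0.38 ± 0.14 and 0.55 ± 0.15 on the log2 scale in PC9 (edgeR adjusted p = 0.0207 and 0.0018) and rose by 0.46 ± 0.13 with erlotinib in H1650 (edgeR adjusted p = 0.0045). The osimertinib difference in H1650 was 0.28 (95% interval 0.02 to 0.53, edgeR adjusted p = 0.0903), and it passed the test without the second T0 library (0.44, edgeR adjusted p = 0.0295). Both erlotinib calls were lost without some single libraries, with edgeR adjusted p-values of 0.0541 to 0.153 for 3 libraries in PC9 (either T0 library or the first erlotinib library) and of 0.119 and 0.129 for 2 in H1650 (the first T0 or the second erlotinib library).

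Per kb, the summed level of DBP and TEF relative to NFIL3 went from 0.754 ± 0.064 in PC9 at T0 to 3.50 ± 0.32 with erlotinib and 3.54 ± 0.20 with osimertinib. In H1650 it was 1.00 ± 0.19 at T0, 0.765 ± 0.154 with erlotinib and 1.02 ± 0.0063 with osimertinib, and the T0 libraries overlapped both treated groups. The summed DBP and TEF mRNA per kb was thus more than 3 times that of NFIL3 in every treated PC9 library. The highest H1650 library, the first at T0, was at 1.14. These are ratios of mRNA that depend on the gene lengths used, and the balance of the proteins was not tested.

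BHLHE41 (ENSG00000123095, chr12:26120026-26125127, minus strand), the E-box repressor, showed the widest gap between the lines. PC9 libraries were at 29.4 and 29.9 at T0, at 19.2 and 22.2 with erlotinib and at 20.1 and 20.01 with osimertinib. H1650 libraries were at 3.64 and 3.32 at T0, at 4.90 and 5.63 with erlotinib and at 5.87 and 7.26 with osimertinib. All PC9 libraries were above all H1650 libraries, and the gap between the lines was narrower after treatment. BHLHE41 fell by 0.52 ± 0.12 and 0.56 ± 0.12 on the log2 scale in PC9 (edgeR adjusted p = 0.00048 and 0.00022) and rose by 0.61 ± 0.17 and 0.92 ± 0.17 in H1650 (edgeR adjusted p = 0.0071 and 7.0e-05). The H1650 erlotinib call was lost without the second T0 library or the second erlotinib library (edgeR adjusted p = 0.0703 and 0.0949). BHLHE41 shares 4.10% of its exon bases with SSPN on the opposite strand, and SSPN rose in all 4 comparisons, by 1.63 and 1.32 in PC9 and 0.81 and 0.55 in H1650 on the log2 scale. The part of SSPN reads in the BHLHE41 counts was not tested.

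The 10 genes also changed order. Per kb, CRY1 led in PC9 at T0, at 10.4 ± 0.69 normalized CPM per kb, followed by BHLHE41 at 7.70 ± 0.086 and NFIL3 at 6.15 ± 0.11, and DBP at 1.19 ± 0.0094 was the lowest of those with reads. With erlotinib TEF at 10.4 ± 0.43 and PER1 at 8.95 ± 0.30 led in PC9, and with osimertinib PER1 at 10.2 ± 1.04 and TEF at 10.0 ± 0.47, which did not differ beyond their spread. In H1650 NFIL3 led in each group, at 8.98 ± 1.37 at T0, 12.4 ± 1.59 with erlotinib and 10.9 ± 0.63 with osimertinib, and TEF was next, at 6.99 ± 0.13, 6.22 ± 0.086 and 7.17 ± 0.20. Levels per kb depend on the length used: with the longest GENCODE 29 transcript, 18 of 60 ranks changed. With that length PER1 was above TEF in PC9, at 13.3 against 11.2 with erlotinib and 15.2 against 10.7 with osimertinib. In H1650 at T0, CRY1 at 8.08 was then above TEF at 7.48.

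The change differed between the lines for 8 of the 9 tested genes with erlotinib and for 8 with osimertinib, by the test of the difference of changes itself (H1650 minus PC9). Of all tested genes, 40.8% and 41.9% differed in that way. The difference was below 0 for PER1, PER3, CRY2, DBP and TEF, which were thus less raised or more lowered in H1650, and above 0 for CRY1, NFIL3 and BHLHE41. The widest were for PER3, at -2.15 ± 0.16 and -1.93 ± 0.15 on the log2 scale, and for TEF, at -1.76 ± 0.13 and -1.50 ± 0.13 (edgeR adjusted p between 3.4e-10 and 5.0e-12). For DBP, which rose in both lines, the difference was -1.62 ± 0.20 with erlotinib and -0.96 ± 0.20 with osimertinib. For CRY1, which fell in both, it was 0.77 ± 0.15 and 0.41 ± 0.15, and the latter (edgeR adjusted p = 0.0309) was lost with DESeq2 (0.0788), with upper quartile scaling (0.0596) and without the second T0 library of either line, either PC9 osimertinib library or the first H1650 osimertinib library (edgeR adjusted p from 0.0664 to 0.133). PER2 did not pass the test, with differences of -0.13 (95% interval -0.52 to 0.25) and -0.18 (-0.57 to 0.21).

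**Figure D4:**
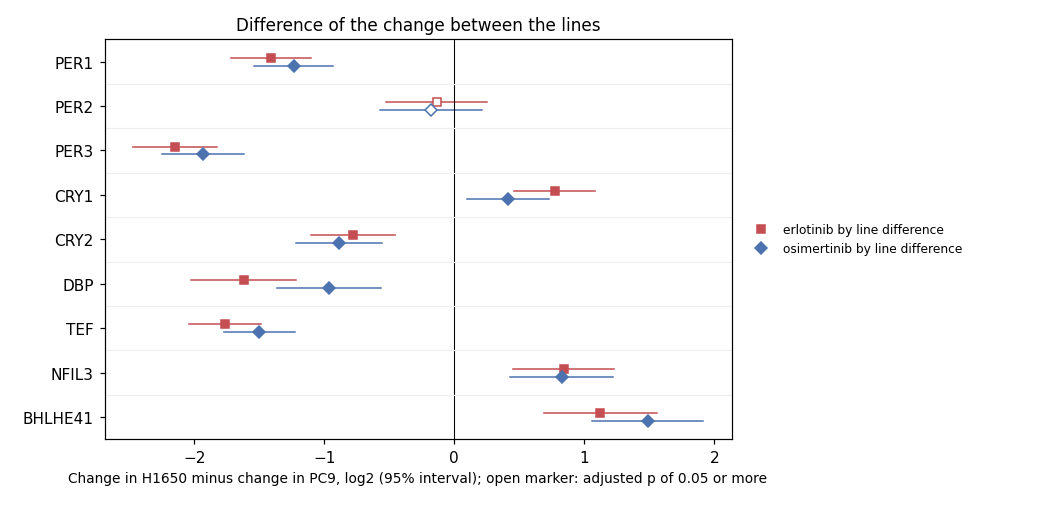
Log2 change in H1650 minus log2 change in PC9 (x axis) for the 9 tested genes (rows) with 95% intervals, for erlotinib (red squares) and osimertinib (blue diamonds); filled markers have an adjusted p under 0.05. PER3, TEF, PER1, DBP and CRY2 lie below 0, CRY1, NFIL3 and BHLHE41 above it, and both PER2 intervals cross 0.

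The drugs were given at different doses, 10 μM and 0.1 μM, so their values can only be set side by side. Between the treated PC9 groups, 0 of the 9 genes passed the test (edgeR, against 16.6% of all tested genes), 1 had an unadjusted p under 0.05, and DESeq2 gave 0 and 0. That gene was DBP, lower by 0.30 on the log2 scale with osimertinib (95% interval -0.55 to -0.05, edgeR adjusted p = 0.0938, and 0.0262 with 1 fit per line), and the intervals of the other 8 reached no further than -0.47 and 0.39. In H1650 PER1 was the 1 gene of 9 called, higher with osimertinib by 0.37 ± 0.11 on the log2 scale (edgeR adjusted p = 0.0267), against 8.75% of all tested genes. The PER1 call was lost without the second erlotinib library or either osimertinib library (edgeR adjusted p from 0.0900 to 0.380). DBP, higher by 0.36 there (edgeR adjusted p = 0.0870), passed without the first erlotinib library (0.63, edgeR adjusted p = 0.0045).

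At T0, H1650 differed from PC9 in 8 of the 9 genes, against 69.6% of all tested genes. PER3, DBP, TEF and NFIL3 were higher in H1650, by 1.31 ± 0.11, 0.68 ± 0.15, 1.02 ± 0.10 and 0.55 ± 0.13 on the log2 scale. PER2, CRY1, CRY2 and BHLHE41 were lower, by -1.14 ± 0.13, -0.69 ± 0.10, -0.38 ± 0.11 and -3.10 ± 0.15, the last an 8.54-fold difference. PER1 was not called, at -0.05 with a 95% interval from -0.27 to 0.18.

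Of 11 listed genes of the core loop that acts on these outputs, 10 were tested: 4 rose and 4 fell with each drug in PC9 (median log2 change 0.26 and 0.20), and 1 rose and 2 fell with erlotinib and 3 rose and 1 fell with osimertinib in H1650 (-0.05 and 0.15). These counts, and those of the lists that follow, stand beside 32.7% higher and 29.1% lower (erlotinib) and 32.7% and 28.7% (osimertinib) of all tested genes in PC9 and 18% and 18.5%, and 17.8% and 17.9%, in H1650. ARNTL, which encodes BMAL1, was at 11.9 ± 0.25 in PC9 at T0, 5.59 ± 0.40 with erlotinib and 5.16 ± 0.56 with osimertinib, and at 7.62 ± 0.68, 9.87 ± 1.1 and 10.7 ± 0.46 in H1650 (n = 2 each). It fell in PC9 by 1.09 ± 0.16 and 1.21 ± 0.16 on the log2 scale and rose in H1650 with osimertinib by 0.48 ± 0.15 (edgeR adjusted p = 0.015), while the H1650 erlotinib difference of 0.37 did not pass the test (edgeR adjusted p = 0.062). ARNTL2, the paralog of ARNTL, fell in all 4, by 0.87 and 0.77 in PC9 and 1.20 and 1.40 in H1650. It was at 250 ± 5.61 in PC9 at T0, 137 ± 12.4 with erlotinib and 146 ± 2.51 with osimertinib. In H1650 ARNTL2 was at 54.4 ± 2.14, 23.6 ± 2.99 and 20.6 ± 0.71, so its level was above that of ARNTL in every group. BHLHE40 (DEC1), the paralog of BHLHE41, rose in PC9 by 0.28 and 0.91 and in H1650 with osimertinib by 0.75. The share of BHLHE41 in the summed level per kb of both genes went from 31.6% to 21.0% and 14.2% in PC9 and was 1.91%, 2.91% and 2.14% in H1650.

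The remaining core loop genes named here were chosen after their values were seen. NPAS2, the alternative partner of BMAL1, went from 69.6 ± 2.45 in PC9 at T0 to 13.9 ± 0.23 and 13.9 ± 0.27, a fall of 2.32 ± 0.13 and 2.33 ± 0.13 on the log2 scale, and held 9 to 27 reads in the H1650 libraries. CLOCK fell in PC9 by 0.28 and 0.50, with log2 changes of -0.12 and -0.12 in H1650 that did not pass the test. NR1D2 (REV-ERBβ), a repressor of ARNTL that is itself an E-box target, was at 60.9 ± 4.49 in PC9 at T0, 168 ± 20.8 with erlotinib and 161 ± 6.24 with osimertinib, and between 60.1 ± 1.91 and 66.9 ± 3.03 in the H1650 groups. NR1D2 rose by 1.46 ± 0.086 and 1.40 ± 0.086 on the log2 scale in PC9, and its H1650 values of 0.16 and 0.07 did not pass the test. Its paralog NR1D1 (REV-ERBα), also listed, showed no rise of that size in PC9. The PC9 libraries of NR1D1 were at 6.40 and 6.96 at T0, 7.44 and 9.68 with erlotinib, and 5.999 and 7.45 with osimertinib. In H1650 NR1D1 was at 10.5 and 13.7 at T0, 7.87 and 9.29 with erlotinib, and 8.997 and 10.8 with osimertinib.

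**Figure D5:**
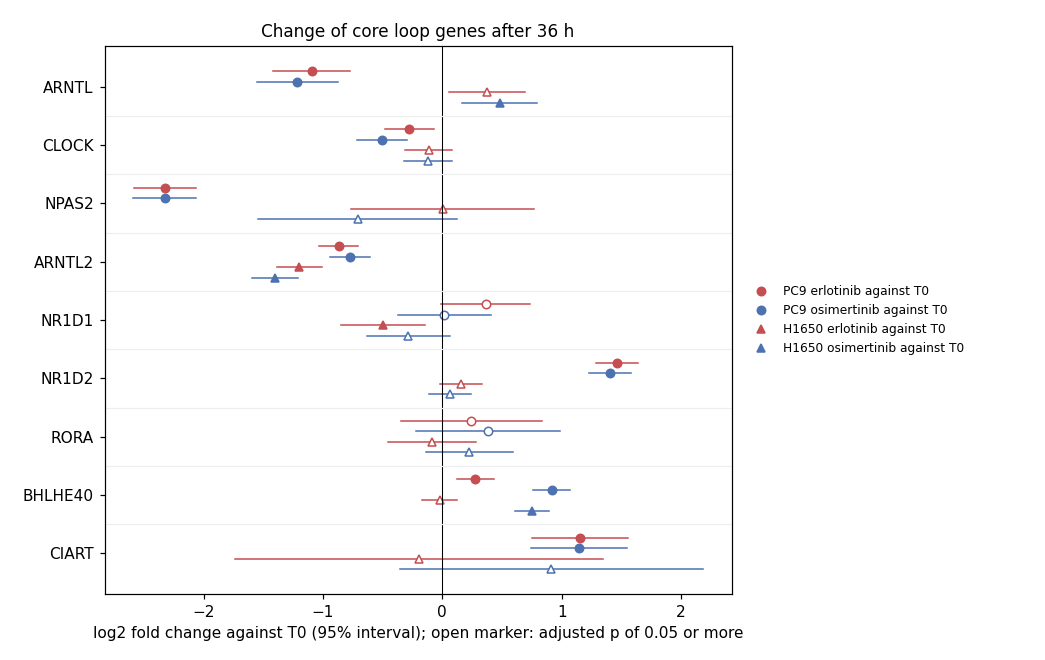
Log2 fold change against T0 (x axis) of 9 core loop genes (rows) with 95% intervals, drawn as for the 9 output genes (circles, PC9; triangles, H1650; red, erlotinib; blue, osimertinib; filled, adjusted p under 0.05). ARNTL lies left of 0 in PC9 and right of it in H1650, NPAS2 and NR1D2 move away from 0 in PC9, and ARNTL2 lies left of 0 in all 4.

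Of 10 listed genes for proteins that modify clock proteins or their turnover, 9 were tested: 4 rose and 0 fell with erlotinib and 2 rose and 1 fell with osimertinib in PC9 (median 0.16 and 0.18), and 0 rose and 1 fell, and 2 rose and 2 fell, in H1650 (0.03 and 0.08), beside the all-gene shares given above. On the log2 scale CSNK1D, a kinase that marks PER proteins for turnover, rose by 0.37 and 0.46 in PC9. It rose by 0.18 in H1650 with osimertinib, and its H1650 erlotinib value of 0.03 did not pass the test. CSNK1E, also listed and named after its values were seen, was at 182 ± 4.86 in PC9 at T0, 189 ± 18.5 with erlotinib and 168 ± 5.57 with osimertinib. In H1650 CSNK1E was at 74.8 ± 3.23, 84.1 ± 0.43 and 88.4 ± 3.82. Of 12 further genes known as clock outputs, 11 were tested: 5 rose and 4 fell, and 7 rose and 2 fell, in PC9, and 3 rose and 2 fell, and 4 rose and 3 fell, in H1650 (erlotinib, then osimertinib). Their medians were 0.63, 0.66, 0.11 and -0.09, and the all-gene shares are again those of the core loop. KLF9, a Krüppel-like factor that is also in the list of glucocorticoid receptor targets, rose in all 4 as DBP did, by 2.30 ± 0.15 and 2.21 ± 0.15 in PC9 and 1.29 ± 0.15 and 1.25 ± 0.15 in H1650. CES2, a carboxylesterase, and POR, the electron donor of cytochrome P450 enzymes, also rose in all 4, by 0.40 to 1.54 and 0.48 to 0.75. KLF10 fell in all 4, by 0.33 to 1.18, and NOCT, a rhythmic phosphatase gene, fell with erlotinib and rose with osimertinib in PC9 (-0.43 and 0.41) and fell in H1650 by 1.12 and 0.86.

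Lists of genes for other inputs known to act on PER1 were also counted, and their part in the changes of the 10 genes was not tested. Of all tested genes, 32.7% rose and 29.1% or 28.7% fell in PC9, and 18% or 17.8% rose and 18.5% or 17.9% fell in H1650. Among 7 tested glucocorticoid receptor targets, 3 rose and 4 fell with erlotinib and 4 rose and 3 fell with osimertinib in PC9, and 3 rose and 3 fell, and 4 rose and 3 fell, in H1650 (medians -0.31, 0.77, -0.01 and 0.34). TSC22D3 (GILZ) rose in all 4, by 4.02 and 3.33 in PC9 and 1.13 and 0.90 in H1650, while FKBP5 fell in all 4, by 3.68 and 3.93 and by 0.73 and 0.85. MT2A, a metallothionein, fell in all 4 by 0.38 to 2.75, and ERRFI1, a feedback inhibitor of EGFR, fell in PC9 (-0.45 and -0.82) and rose in H1650 (0.21 and 0.34). DUSP1, a MAP kinase phosphatase, rose in PC9 (1.79 and 2.98) and fell in H1650 (-0.81 and -0.44). Among 10 CREB and serum early genes, 6 rose and 2 fell with erlotinib and 8 rose and 1 fell with osimertinib in PC9, against 1 and 7, and 1 and 5, in H1650 (medians 0.75, 1.36, -0.72 and -0.38). At T0, 8 of these 10 were higher and 2 lower in H1650 than in PC9 (median log2 difference 3.18, with 69.6% of all tested genes differing). In summed normalized CPM, the PC9 libraries were at 117 to 134 at T0, 188 to 197 with erlotinib and 426 to 470 with osimertinib. Those of H1650 were higher in each case, at 861 to 942, 343 to 353 and 519 to 548.

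EGR1, an early gene of ERK signaling, rose in PC9 by 0.78 ± 0.11 and 2.35 ± 0.11 on the log2 scale and fell in H1650 by 2.57 ± 0.099 and 1.56 ± 0.095. These changes began from unequal levels. EGR1 was at 31.8 ± 5.98 in PC9 at T0, 54.6 ± 1.37 with erlotinib and 163 ± 17.8 with osimertinib. In H1650 it was at 465 ± 38.2, 78.1 ± 7.34 and 158 ± 7.94. ATF3, a stress-induced bZIP factor, rose in PC9 by 3.54 and 3.66 and fell in H1650 by 0.63 and 0.49, and FOSB went the same way (0.94 and 2.98, -1.18 and -0.64). FOS rose in PC9 by 0.59 and 2.92 and fell in H1650 with erlotinib by 0.80, with an osimertinib value of -0.03 that did not pass the test. IER2 rose in PC9 with osimertinib by 0.62 and fell in H1650 by 0.86 and 0.28, with a PC9 erlotinib value of 0.12 that did not pass the test. NR4A2 rose in all 4 by 0.76 to 1.37, and CREM, which encodes a cAMP-responsive repressor, fell in all 4 by 0.34 to 0.90. All 8 proliferation genes fell with each drug in PC9 (median -3.29 and -3.20), and 7 of 8 fell with each drug in H1650 (-0.48 and -0.60), TYMS, CDK1, MKI67 and MCM5 by 3.15 to 4.62 in PC9 and 0.25 to 1.02 in H1650. All 8 differed between the lines with each drug, with the larger fall in PC9, the line in which DBP, TEF and PER1 rose more, and their part in those changes was not tested.

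The genes whose log2 normalized CPM followed each tested gene most closely over the 12 libraries, among 10294 genes with a mean of at least 10 normalized CPM, were found by Pearson correlation, given as a description since the libraries fall into 6 groups and share their scaling. For PER1 they were TGIF1 (r = 0.992) and TMEM94 (0.989), for PER2 AGAP1 (0.989) and COPS7A (0.988), and for PER3 FAM135A (0.959) and TMEM40 (0.958). For CRY1 they were MGAT5 (0.990) and HSPA8 (0.986), and for CRY2 RNF141 (0.993) and FECH (0.992). For DBP they were IFT140 (0.984) and TRIM4 (0.980), and for TEF RNF217 (0.987) and CACNG4 (0.983). For NFIL3 they were ATP2B1 (0.983) and SVEP1 (0.982), and for BHLHE41 SLC9A3R2 (0.988) and CHRNB1 (0.987). PER3 had the least close followers of the 9, and none of the genes named is itself 1 of the 10.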

How the data were processed

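RNA-seq of PC9 and H1650 cells was analysed in 12 libraries, grouped by their labels. The authors processed reads with the DolphinNext pipeline and deposited raw featureCounts counts per gene, without normalization. The submitters' processing notes name GRCh38 and DESeq2. The aligner, annotation and strandedness are not given in the sources used here. Gene positions and exon overlaps were taken from GENCODE 29, and promoters from RefSeq, in which all 10 genes matched by symbol. The deposited gene length equals the GENCODE 29 exon bases for PER1 (7002) and PER3 (8099). It differs for others, such as CRY1 (4782 against 5062), DBP (6485 against 6544) and BHLHE41 (3854 against 3948). The counted models of those genes were thus not the GENCODE 29 ones, and their shares of exon bases are approximate.

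The model was fitted to counts with edgeR 4.0.16 (R 4.3.3). Its filter by group (filterByExpr) left out 41483 genes. A quasi-likelihood model with 6 groups and TMM factors from 0.941 to 1.08 was fitted to all libraries (6 residual and 20.7 prior degrees of freedom, biological coefficient of variation 0.0656), and F tests were adjusted by Benjamini-Hochberg over 19108 genes. The standard error is the log2 change divided by the root of F, and the 95% interval uses the t distribution. The fit was also run on simulated counts. Replicates differed beyond sampling noise, with a chi-square over degrees of freedom of 4.03 to 7.16, so none was counted as a duplicate.

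The 10 genes and the lists were chosen with earlier results of these data known. Listed genes are named when called in at least 3 of the 4 drug comparisons, at most 4 a list by mean change, or when called in opposite directions in the lines; others named are said to be chosen afterwards, as were SPHK2, UTS2 and SSPN. A gene that the rule names is not reported here. The comparisons were each drug against T0, the drug by line difference, osimertinib against erlotinib, and the lines at T0. Alternatives were DESeq2 1.42.0, RLE and upper quartile scaling, no filter, a minimum of 10 counts in all libraries, an adjusted p under 0.01, 1 fit per line, a replicate block, and leaving out each library. Same-numbered replicates are not said to be paired. Sums and ratios per kb used the length column of the table.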

Additional observations from a re-analysis of the deposited data

Results flagged for a closer look

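The change from T0 differed between H1650 and PC9, by the test of that difference in the same model (edgeR, adjusted over all genes), for these values of the log2 change in H1650 minus that in PC9. With erlotinib the differences were -1.41 for PER1, -2.15 for PER3, -0.78 for CRY2, -1.62 for DBP and -1.76 for TEF, and 0.77 for CRY1, 0.84 for NFIL3 and 1.12 for BHLHE41. With osimertinib they were -1.23 for PER1, -1.93 for PER3, -0.89 for CRY2, -0.96 for DBP and -1.50 for TEF, and 0.41 for CRY1, 0.83 for NFIL3 and 1.49 for BHLHE41. The direction in both drugs was the same for each of these 8 genes, but both comparisons use the same T0 libraries. Of all tested genes, 40.8% and 41.9% differed between the lines in the same way.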

How the results depend on the processing

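Of the 9 tested genes, the number called in the alternatives other than leaving out a library was 7 to 8 for PC9 with erlotinib (8 as reported), 8 to 9 for PC9 with osimertinib (9), 5 to 6 for H1650 with erlotinib (5), 6 to 7 for H1650 with osimertinib (6), 8 and 7 to 8 for the differences by line (8 and 8), and 8 at T0 (8). Leaving out each library gave 3 to 5 for H1650 with erlotinib (3 without the second erlotinib library) and 0 to 2 for osimertinib against erlotinib in H1650 (1 as reported), where an adjusted p under 0.01 gave 0 and no filter and the replicate block gave 2. In PC9, osimertinib against erlotinib gave 1 with 1 fit per line and 1 with the replicate block (0 as reported), DBP in both. Values that changed sign were all of uncalled differences: for CRY2 in H1650 with erlotinib -0.0069 (DESeq2), -0.0049 (RLE), -0.0068 (no filter) and, without single libraries, -0.049 to 0.074, for PER1 there -0.035 to 0.28, and for osimertinib against erlotinib in PC9, without single libraries, -0.043 (-0.041 in another) to 0.20 for PER3, -0.11 to 0.0012 for CRY2, -0.15 to 0.066 for BHLHE41 and -0.27 to 0.042 for PER2. The cause was not tested. Upper quartile scaling ended the calls of NFIL3 in PC9 with erlotinib (edgeR adjusted p = 0.0751) and PER2 in PC9 with osimertinib (0.102) and of the CRY1 difference by line with osimertinib (0.0596), RLE scaling gained that of PER2 in H1650 with erlotinib (0.0465), and the PER2 call in PC9 was also lost with a minimum of 10 counts in all libraries (0.0611). The replicate block, in 81 tests, gained 4 calls (PER2 in H1650 with erlotinib, 0.0463; NFIL3 in H1650 with osimertinib, 0.0493; DBP between the drugs in PC9, 0.0315, and in H1650, 0.0239), lost 0 and turned 0. Deviations of same-numbered libraries correlated between -0.0027 and 0.301 over 15 pairs of groups, with 1 pair below 0. Over all genes the block gave more calls in every comparison. For erlotinib in H1650 these were 7821 against 6966, and for osimertinib against erlotinib in PC9 4166 against 3163. Over all genes, osimertinib against erlotinib gave 3163 calls in PC9, 1930 at an adjusted p under 0.01 and 2108 without the second osimertinib library, and in H1650 1672 calls, 912 at an adjusted p under 0.01, 2670 with the block and 1093, 1045 and 782 without the first erlotinib, second erlotinib or first osimertinib library. Other scalings moved the median of all genes by at most 0.0905 on the log2 scale.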
